A study of Homo sapiens with 6 samples.

Results

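The fused-type S100 genes are a family of 7 neighbours in the epidermal differentiation complex of chromosome 1q21, HRNR, FLG, FLG2, RPTN, TCHH, TCHHL1 and CRNN. They were taken by name, 7 of the 38167 genes of the count table, and all 7 were found and passed the filter on low counts. The family was picked from these data with its counts in stiff and soft Matrigel already known, so the values of its members in that comparison are given as a description with no test of their own. The RNA came from small extracellular vesicles, which had been collected from the medium of Cal27 spheroids by insulator-based dielectrophoresis. Cal27 is an established line of squamous carcinoma cells, and all spheroids were of that line and were sampled at day 14. In the stiff group the spheroids were held in Matrigel at 12 mg/mL (3 libraries), and in the soft group at 3 mg/mL (3 libraries). Matrigel is a gel of basement membrane proteins from a mouse tumour, and its concentration sets both its stiffness and the amount of protein around the cells, which cannot be told apart here. The question was whether the stiffness of the matrix alters the RNA that such vesicles carry.

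Fused-type S100 proteins join a calcium-binding S100 domain at their start to a long stretch of tandem repeats. In the upper layers of stratified epithelia they are stored in granules or built into the cornified envelope, the cross-linked shell of a dying keratinocyte, where transglutaminases tie them to keratin filaments and to other envelope proteins. They are markers of late keratinocyte differentiation, in skin, in hair follicles and in the lining of the mouth and tongue.

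The 7 genes share one plan, and the repeats differ between them. Each lay on the minus strand of chromosome 1 with 3 exons in GENCODE release 29 (GRCh38), and exon 3 held 89.4% (CRNN) to 98.6% (FLG) of the transcript. Together they spanned 330.12 kb. HRNR (chr1:152212082-152224193) had a transcript of 9623 bases, of which 8550 were coding. A window of 61 bases, the read length given in the labels, was slid along each transcript to ask how much of it occurs again. In HRNR 45.3% of windows occurred more than once in the same transcript, which placed it at percentile 99.9 of 19282 protein-coding genes, of which 97.8% had no repeated window. FLG had 24.7%, FLG2 2.93%, TCHH 2.29% and RPTN 0.171%, and TCHHL1 and CRNN had none. The transcript of HRNR matched itself best when shifted by 1410 bases, at 63.1% of positions, and that of FLG when shifted by 972 bases, at 70.8%. The 4 stretches of 120 coding bases below lie 1410 bases apart in HRNR, at chr1:152218678-152218797, chr1:152217268-152217387, chr1:152215858-152215977 and chr1:152214448-152214567 (GRCh38, minus strand), and are shown because a 61-base read from their first bases has 4 possible places of origin. Capitals mark the bases that differ from the first unit.
HRNR unit 1: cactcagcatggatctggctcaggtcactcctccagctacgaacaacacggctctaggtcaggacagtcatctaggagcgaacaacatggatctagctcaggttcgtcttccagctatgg
HRNR unit 2: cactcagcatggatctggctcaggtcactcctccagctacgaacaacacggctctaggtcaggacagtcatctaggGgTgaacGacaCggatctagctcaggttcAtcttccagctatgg
HRNR unit 3: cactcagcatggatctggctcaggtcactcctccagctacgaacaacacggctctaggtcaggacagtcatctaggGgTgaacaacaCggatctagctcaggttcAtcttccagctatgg
HRNR unit 4: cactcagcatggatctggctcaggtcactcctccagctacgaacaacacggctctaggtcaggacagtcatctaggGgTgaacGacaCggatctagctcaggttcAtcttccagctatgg
Units 2, 3 and 4 differed from unit 1 at 5, 4 and 5 of the 120 positions, and their first 61 bases were the same in all 4. Repeats of the other members had other scales. The TCHH window printed here (GRCh38, minus strand) occurred 7 times in its transcript, first at chr1:152112044-152112104, each time 18 bases further on.
TCHH: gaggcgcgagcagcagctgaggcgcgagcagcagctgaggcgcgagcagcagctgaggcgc
Reads that match several places are dropped, shared or counted in each place depending on the settings of the aligner and the counter, which the labels do not state. The number of places was known here for transcripts only, since no genome sequence was searched.

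**Figure D1:**
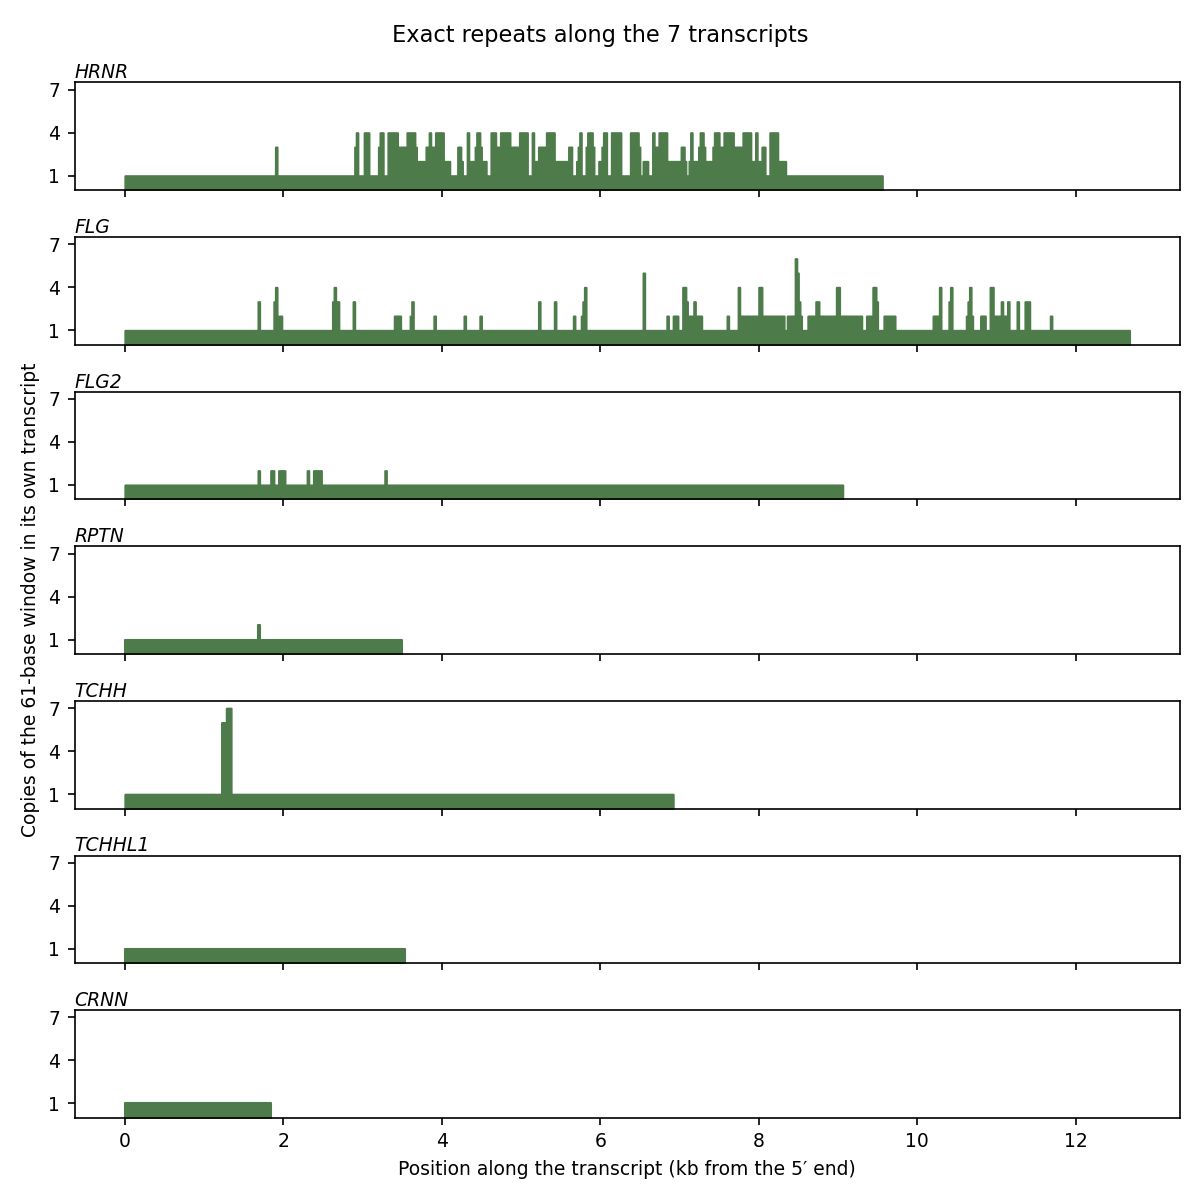
Copies of each 61-base window in its own transcript (y axis, number of copies, every 20th window drawn) against position along the transcript (x axis, kb from the 5′ end), with 1 panel for each of the 7 genes. HRNR reaches 4 copies over its middle part, FLG reaches 6, TCHH reaches 7 in a short stretch, and TCHHL1 and CRNN stay at 1.

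The starts of the genes also resembled each other. The 50 bases around the start are printed on the strand of the gene, minus in each, from the RefSeq promoters (GRCh38.p14) of all 7, so that the start of HRNR can be read beside those of its neighbours. Capitals mark the letters TATAAA, the core of a TATA box, where they fell between 40 and 16 bases before the start.
HRNR promoter, chr1:152224189-152224238: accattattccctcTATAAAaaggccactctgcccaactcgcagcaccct
FLG promoter, chr1:152325235-152325284: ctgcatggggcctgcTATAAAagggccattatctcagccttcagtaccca
FLG2 promoter, chr1:152360002-152360051: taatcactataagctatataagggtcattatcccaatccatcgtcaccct
RPTN promoter, chr1:152159224-152159273: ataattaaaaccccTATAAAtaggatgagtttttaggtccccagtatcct
TCHH promoter, chr1:152115440-152115489: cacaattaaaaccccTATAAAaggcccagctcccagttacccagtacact
TCHHL1 promoter, chr1:152089060-152089109: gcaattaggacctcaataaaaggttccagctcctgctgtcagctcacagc
CRNN promoter, chr1:152414259-152414308: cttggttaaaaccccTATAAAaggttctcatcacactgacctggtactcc
Those letters stood there in 5 of the 7 promoters, 30 or 31 bases before the start, and in 2.30% of all 35116 promoters of the table. HRNR, FLG, RPTN, TCHH and CRNN had them. FLG2 and TCHHL1 did not have these exact letters anywhere in their 300 bases on either strand, against 11.5% of all promoters that did. Close variants were not counted, in these genes or in all promoters. FLG2 had tatata, and TCHHL1 aataaa, at the place where TATAAA begins in HRNR, so the exact match does not show that they lack a TATA box. A match describes letters and does not show that a factor binds.

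Levels were compared between genes per kb of exon, on raw counts. TCHH, the trichohyalin gene of the hair root sheath and the filiform papillae of the tongue, had the most counts per kb of exon, 30.4 ± 2.56 in stiff and 29.7 ± 1.90 in soft libraries (SD, n = 3 each). HRNR, which encodes hornerin, a repeat protein of the cornified envelope, followed with 16.9 ± 3.16 in stiff and 26.8 ± 3.87 in soft libraries. The order over all 6 libraries was TCHH, HRNR, CRNN, RPTN, FLG, TCHHL1 and FLG2. CRNN, the gene of cornulin, a protein of the lining of the mouth and oesophagus, averaged 14.3 ± 4.60 counts per kb of exon (SD, n = 6). RPTN, for repetin, an envelope precursor, averaged 12.1 ± 2.05. FLG, whose product profilaggrin is cut into the filaggrin that bundles keratin filaments, averaged 11.3 ± 1.36, TCHHL1 10.6 ± 2.64 and FLG2, for the related filaggrin-2, 9.44 ± 1.68 counts per kb of exon (SD, n = 6 each). From CRNN down, neighbours in the order differed by less than the larger of their SDs. TCHH and HRNR overlapped in range, at 28.6 to 33.3 and 13.3 to 31.3 counts per kb, as did HRNR and CRNN, which ranged from 8.94 to 21.6.

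Measured per 1000 windows found once in the annotated transcripts, in place of per kb of exon, HRNR lay above TCHH in soft libraries and beside it in stiff libraries. It then had 31.0 ± 5.82 counts in stiff and 49.3 ± 7.13 in soft libraries, and TCHH had 31.3 ± 2.65 in stiff and 30.6 ± 1.96 in soft libraries (SD, n = 3 each). Over all 6 libraries HRNR averaged 40.2 and TCHH 31.0, an order set by the soft libraries. FLG moved to 16.3 ± 1.53 in stiff and 15.96 ± 2.64 in soft libraries on that scale. The windows treat every read as single and 61 bases long, while the libraries were read in pairs, so they overstate how much of HRNR is ambiguous. This scale also applies only if reads with several places were dropped, which the labels do not state. If such reads were counted, it sets HRNR and FLG too high.

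**Figure D2:**
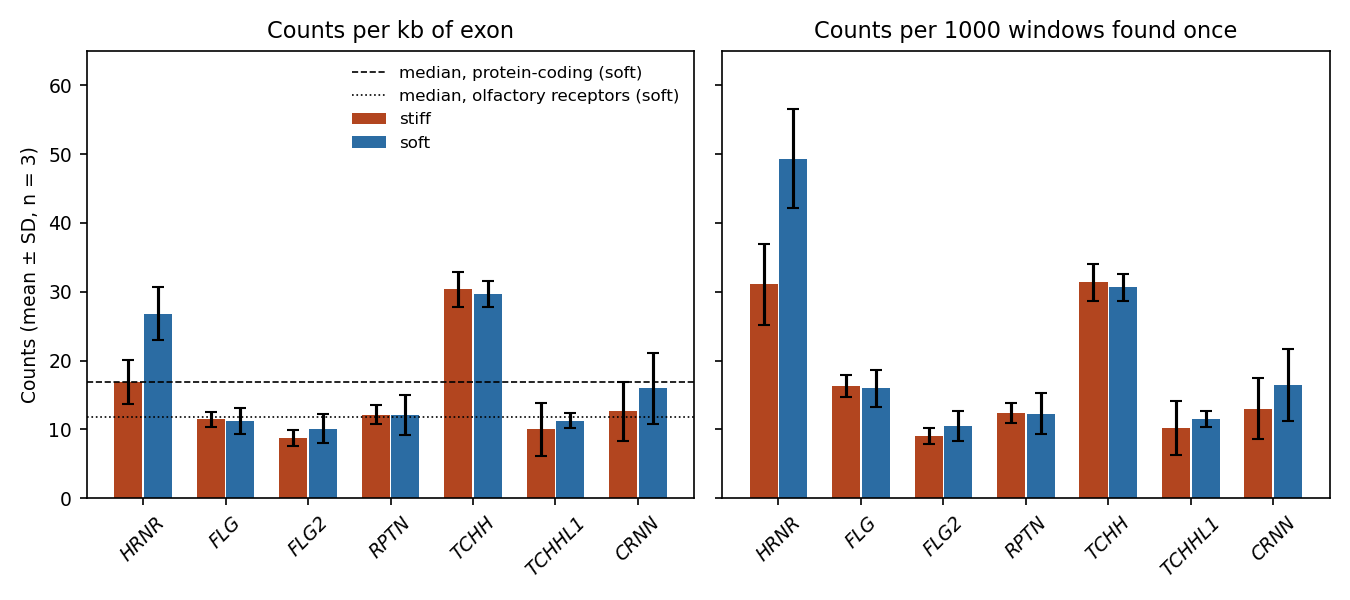
Raw counts per kb of exon (left) and per 1000 windows found once (right) for the 7 genes, as bars of the mean with SD over 3 stiff and 3 soft libraries. Lines on the left mark the median of protein-coding genes tested and of olfactory receptor genes in soft libraries, 16.8 and 11.8 counts per kb. TCHH and HRNR in soft libraries stand above both lines, and HRNR in soft libraries is the tallest bar on the right.

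The levels of most members lay within the range of genes that a squamous cell is not known to use. The 381 olfactory receptor genes, which encode odorant receptors of the nose, had a median of 10.9 counts per kb of exon in stiff and 11.8 in soft libraries, and protein-coding genes tested had 15.9 in stiff and 16.8 in soft libraries. FLG lay at percentiles 35.2 to 57.2 of the olfactory receptor genes across the 6 libraries, and FLG2 at 24.2 to 53.5. RPTN lay at 32.3 to 66.4, TCHHL1 at 11.02 to 61.2 and CRNN at 40.7 to 85.3. TCHH stood above nearly all of them, at percentiles 92.4 to 97.1, and HRNR ranged from 67.2 to 96.6. Since GC content differed between the genes, each was also set beside the protein-coding genes within 2 percentage points of its own. TCHH, with 56.0% GC, lay at percentiles 72.6 to 82.4 of 2395 such genes, and FLG, with 54.0%, at 9.42 to 21.1 of 2441. HRNR, with 54.6%, ranged from 26.7 to 83.2 of 2401. Genes that mark squamous epithelium, such as KRT5 and TP63, overlapped in level with markers of other tissues. Averaged over the 6 libraries, the 9 squamous markers had 8.24 to 46.1 counts per kb of exon and the 12 markers of other tissues, among them ALB of liver and RBFOX3 of neurons, 4.98 to 53.0. None of these markers was at 0 in any library. Their medians were 21.6 in stiff and 18.6 in soft libraries for the squamous markers, and 15.9 in stiff and 16.2 in soft libraries for the others.

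Between the conditions HRNR was lower in stiff Matrigel and its relatives were not detectably different. HRNR had 128, 173 and 186 counts in the stiff libraries, against 235, 301 and 238 counts in the soft libraries. Every stiff library lay below every soft library, with the lowest value in stiff replicate 1 and the highest in soft replicate 2. In CPM, the counts scaled to library size with TMM factors, which set the bulk of genes equal between libraries, HRNR averaged 62.8 ± 9.24 in stiff and 95.0 ± 12.3 in soft libraries (SD, n = 3 each). The log2 fold change of stiff over soft was −0.59 ± 0.11 (SE), or 1.51-fold lower in stiff. In the edgeR fit over all 31074 genes tested, which called a gene at an adjusted p under 0.05, HRNR was the 1 of 7 members called, where 0.451% of all genes were called and 0.164% were called lower in stiff. HRNR was also the 1 member whose CPM did not overlap between the groups, as in 14.1% of all genes tested in either direction and 6.76% with stiff below soft. These counts are given as a description, since the comparison was known when the family was picked. If these counts stand for transcripts in vesicles, fewer vesicles carrying one and fewer copies in each cannot be told apart. Whether they do was not tested, and olfactory receptor genes also had counts (medians of 10.9 in stiff and 11.8 in soft libraries per kb of exon).

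FLG had 149, 158 and 131 counts in the stiff libraries, against 165, 146 and 118 in the soft libraries, and the groups overlapped. Its CPM averaged 56.8 ± 6.12 in stiff and 52.6 ± 8.02 in soft libraries (SD, n = 3 each), at a log2 fold change of 0.11 ± 0.12. FLG shares 704 bases of exon with FLG-AS1, a gene on the opposite strand with 32, 51 and 28 counts in stiff and 44, 54 and 44 in soft libraries. The library kit keeps the strand but how the counting used it was not given, so reads of the pair may be mixed. FLG-AS1 spans chr1:152168125-152445456, so HRNR, FLG2 and CRNN also lie within it, with 0 shared bases of exon. Whether reads from introns of FLG-AS1 were counted in them was not tested. FLG2 had 78, 71 and 91 counts in stiff and 75, 113 and 89 in soft libraries, with a log2 fold change of −0.13 ± 0.16. Neither gene showed the separation seen in HRNR, although FLG lies 78.0 kb from HRNR and FLG2 beyond it.

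TCHH had 203, 233 and 201 counts in stiff and 200, 200 and 223 in soft libraries, a log2 fold change of 0.11 ± 0.10. This was the steadiest member, with CPM of 82.4 ± 5.58 in stiff and 76.6 ± 6.47 in soft libraries (SD, n = 3 each). RPTN, which lies 52.9 kb to the other side of HRNR, had 41, 40 and 49 counts in stiff and 48, 50 and 31 in soft libraries, a log2 fold change of 0.09 ± 0.22. TCHHL1 had 44, 20 and 44 counts in stiff and 36, 42 and 44 in soft libraries, so that stiff replicate 2 stood below the rest. CRNN had 17, 33 and 22 counts in stiff and 41, 22 and 28 in soft libraries. The log2 fold changes of TCHHL1 and CRNN were −0.10 ± 0.24 and −0.27 ± 0.28, and their groups overlapped. Of FLG, FLG2, TCHH, RPTN, TCHHL1 and CRNN edgeR called 0, where 0.451% of all genes tested were called. Of the 6, 0 had an unadjusted edgeR p under 0.05, against 9.51% of all genes tested. DESeq2 and limma-voom also called 0, though DESeq2 with its filter gave an adjusted p for only 1 of the 6. RPTN, TCHHL1 and CRNN had the fewest counts and the largest SE of the 7, 0.22 to 0.28, so that small differences were not detectable at this depth.

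**Figure D3:**
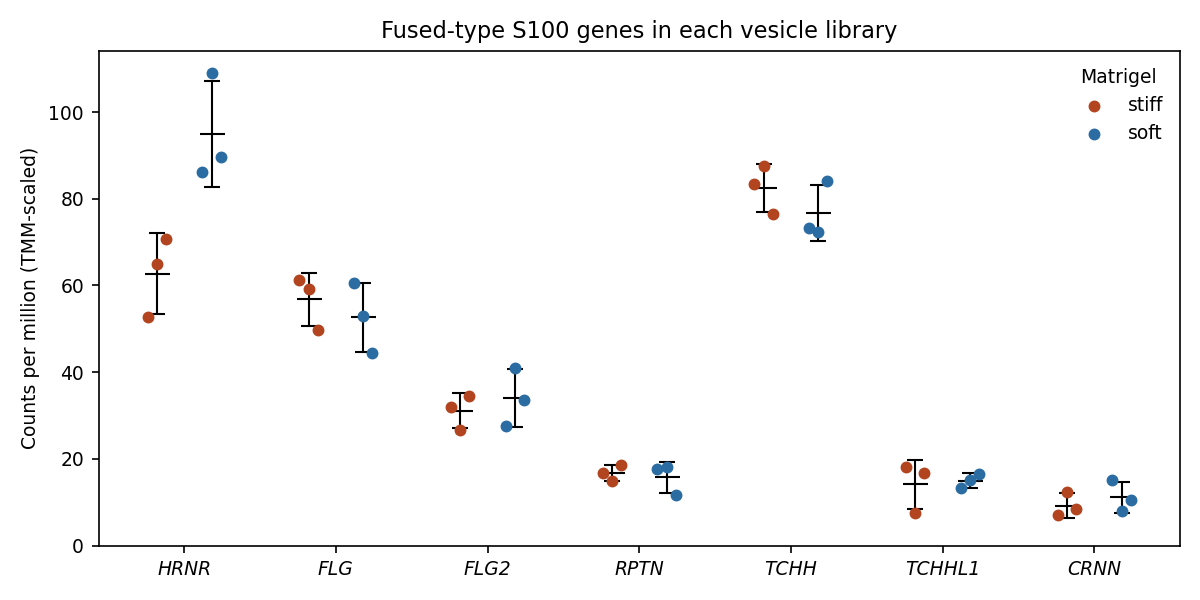
TMM-scaled CPM (y axis) of the 7 genes in each vesicle library, with stiff left of soft. Points are libraries and bars the mean ± SD (n = 3). For HRNR the stiff libraries lie between 52.6 and 70.7 and the soft ones between 86.2 and 109, and for the other 6 genes the groups overlap.

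HRNR was also scaled to the rest of its family in place of library size, with the same HRNR counts as above. For each count of the other 6 genes together, HRNR had 0.241, 0.312 and 0.346 counts in the stiff libraries, against 0.416, 0.525 and 0.447 in the soft libraries. The groups did not overlap, and the stiff mean was 0.647 of the soft mean. HRNR made up 22.9% ± 3.23 of the counts of the family in stiff and 31.6% ± 2.60 in soft libraries (SD, n = 3 each). The other 6 genes summed to 211 ± 7.34 CPM in stiff and 205 ± 3.72 CPM in soft libraries, with overlapping groups. As a family the median log2 fold change was −0.10, with 3 of 7 members above 0, beside a median of −0.00484 and 15264 of 31074 above 0 over all genes tested.

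The direction in HRNR held under every way of fitting that was run. In 15 alternative fits HRNR was called in 15, with log2 fold changes from −0.86 to −0.48. All of them used the same HRNR counts, whose groups did not overlap, so leaving out 1 library could hardly reverse the sign. The lowest came from scaling by library totals alone, which moved the median of all genes tested to −0.27, so that HRNR lay −0.59 from that median as before. Correction for GC content gave −0.61 for HRNR. The change nearest to 0, −0.48, was seen without soft replicate 2 and without stiff replicate 1. FLG, TCHH and RPTN were above 0 with TMM factors and at −0.16, −0.16 and −0.18 under library totals alone, which is above the median of all genes there. FLG and TCHH were above 0 in the other 14 alternatives. RPTN, FLG2, TCHHL1 and CRNN each changed sign when 1 library was left out, to −0.08 without soft replicate 3, 0.03 without soft replicate 2, 0.21 without stiff replicate 2 and 0.01 without soft replicate 1. None of the 6 was called in any of the 15 fits. Those fits called from 43 of 31074 genes tested (DESeq2 without its filter on mean count) to 4194 of 31074 (library totals alone). With so few genes called in most fits, 0 of 6 says little about these genes.

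**Figure D4:**
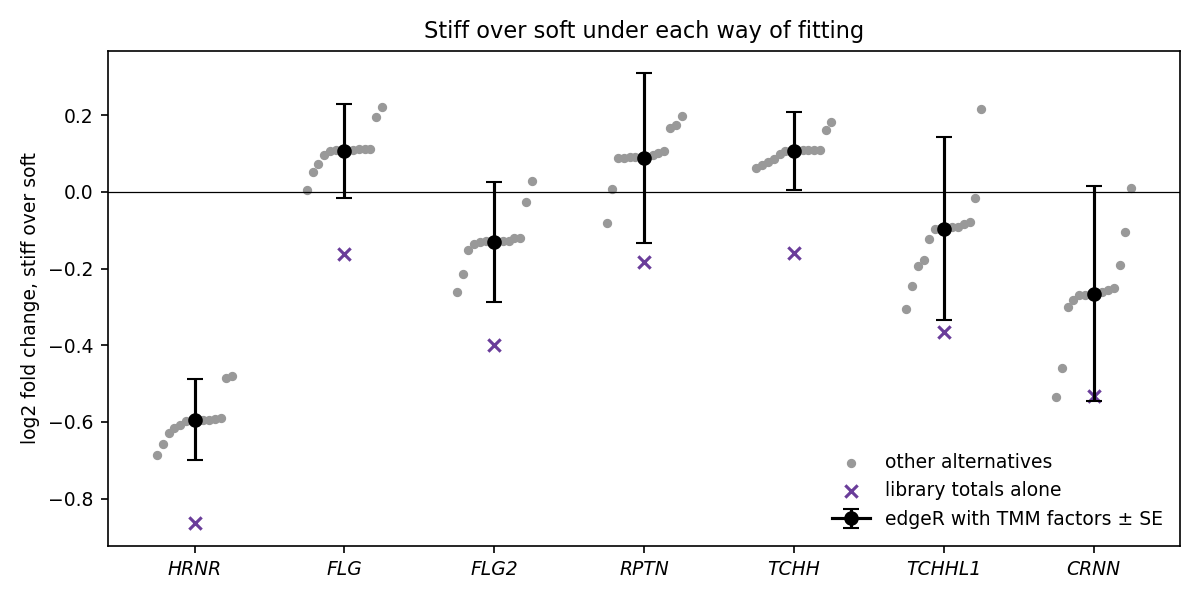
The log2 fold change of stiff over soft (y axis) for each of the 7 genes, as the edgeR estimate ± SE (black), under library totals alone (crosses) and under the other 14 alternatives (grey points). All values of HRNR lie between −0.86 and −0.48, and those of the other 6 genes lie on both sides of 0.

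The genes around HRNR were set beside it. Of 62 genes tested within 1 Mb of it, edgeR called HRNR alone, where 0.451% of all genes tested were called. The window was drawn around HRNR with its call known. At so small a share few calls or none would be seen in most sets of this size, so the count does not single out HRNR within the region. Of the other 61 edgeR, DESeq2 and limma-voom each called 0, and 6 had an unadjusted edgeR p under 0.05 (9.84%, against 9.51% of all genes tested). Their median log2 fold change was −0.03, and 1 of the 61 was below HRNR. That gene was LCE1A, a late cornified envelope gene named after its values were seen, with 11, 16 and 11 counts in stiff and 26, 24 and 28 in soft libraries (log2 fold change −0.96 ± 0.33, edgeR adjusted p = 0.219, n = 3 each).

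**Figure D5:**
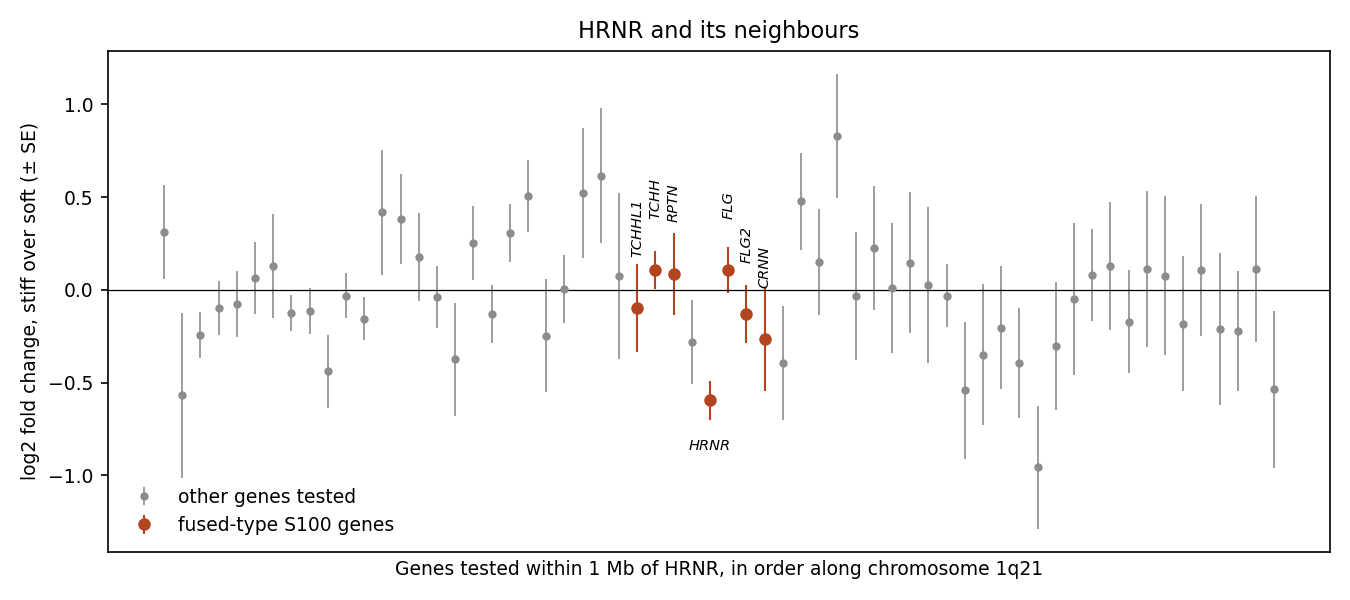
The log2 fold change of stiff over soft ± SE (y axis) of the 62 genes tested within 1 Mb of HRNR, in their order along chromosome 1 (x axis). HRNR, at −0.59, lies below both of its nearest family members, RPTN at 0.09 and FLG at 0.11.

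Other genes of the same processes were counted with 3 tools, edgeR, DESeq2 with and without its filter on mean count, and limma-voom. Over all genes tested edgeR called 0.451%, and 9.51% had an unadjusted edgeR p under 0.05. Of 17 genes linked to the processing and breakdown of profilaggrin and its relatives the 3 tools called 0. Of these 17, 0 had an unadjusted edgeR p under 0.05, with a median log2 fold change of −0.01. Those with the most counts per kb of exon were ASPRV1, a protease that cuts profilaggrin, at 55.9 ± 13.2 in stiff and 55.0 ± 2.53 in soft libraries, and KLK14, a kallikrein protease, at 38.4 ± 5.60 in stiff and 48.2 ± 7.05 in soft libraries (SD, n = 3 each). Of 15 transcription factors and regulators of keratinocyte differentiation the 3 tools called 0, and 2 had an unadjusted edgeR p under 0.05 (13.3%), at a median of 0.06. DESeq2 with its filter gave an adjusted p for only 3 of these 15 and 1 of the 17. EHF, an epithelial ETS factor, had 79.0 ± 3.30 counts per kb of exon in stiff and 88.9 ± 10.6 in soft libraries, and MAF, a leucine zipper factor, 63.5 ± 6.89 in stiff and 61.7 ± 2.65 in soft libraries (SD, n = 3 each).

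The list of cornified envelope and late differentiation genes held 40, not all of them for envelope proteins, of which 31 passed the filter on low counts. Of those the 3 tools called 0, and 3 had an unadjusted edgeR p under 0.05 (9.68%, against 9.51% of all genes tested), at a median log2 fold change of −0.03. LCE1A and PGLYRP3, a peptidoglycan recognition protein, had the most counts per kb of exon, with 30.0 ± 6.84 in stiff and 61.6 ± 4.74 in soft libraries for LCE1A and 56.6 ± 0.492 in stiff and 61.4 ± 6.98 in soft libraries for PGLYRP3 (SD, n = 3 each). Single S100 genes of the same region encode the calcium-binding domain without repeats. The 3 tools called 0 of 14, and 3 had an unadjusted edgeR p under 0.05 (21.4%), with a median of 0.08. S100A9 had 50.8 ± 8.89 counts per kb of exon in stiff and 31.8 ± 7.22 in soft libraries, from 35, 25 and 28 counts in stiff and 15, 23 and 17 counts in soft libraries, and did not pass (edgeR adjusted p = 0.325). S100A5 had 47.2 ± 12.3 in stiff and 48.5 ± 7.76 in soft libraries (SD, n = 3 each). Of the 9 squamous markers 3 had an unadjusted edgeR p under 0.05 (33.3%, against 9.51% of all genes tested), and 1 was called, where 0.451% of all genes were. That gene, KRT14, the basal keratin, was higher in stiff (33.4 ± 6.17 CPM in stiff and 20.6 ± 3.80 CPM in soft libraries, SD, n = 3 each, edgeR adjusted p = 0.0281). KRT14 lost the call in 4 of the 6 fits that left out a library, at an adjusted p of 0.158 without the first soft library, 0.110 without the third soft one, 0.137 without the first stiff one and 0.320 without the second stiff one, and DESeq2 and limma-voom called 0 of the 9. SFN, for stratifin, had the most counts per kb of exon among them, 41.4 ± 2.44 in stiff and 50.8 ± 9.49 in soft libraries (SD, n = 3 each). Of 11 markers of other tissues tested the 3 tools called 0, and 0 had an unadjusted edgeR p under 0.05. ACTA1, the skeletal muscle actin, had 52.0 ± 10.8 counts per kb of exon in stiff and 54.0 ± 2.35 in soft libraries, and RBFOX3 25.5 ± 2.84 in stiff and 28.7 ± 1.27 in soft libraries (SD, n = 3 each). Of 320 olfactory receptor genes tested the 3 tools called 0, and 24 had an unadjusted edgeR p under 0.05 (7.5%). DESeq2 with its filter gave an adjusted p for 2 of the 11 markers of other tissues. It gave an adjusted p for 0 of the envelope, single S100, squamous and olfactory receptor genes, so that its calls there were 0 in advance.

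Other genes with much repeated sequence were set beside HRNR. Of 32 protein-coding genes tested in which at least 20% of windows were repeated, a limit set after the values were seen, HRNR had the lowest log2 fold change, and the median was −0.04 with 19 below 0. FLG was among them. Of the 32 edgeR called 2, where 0.451% of all genes tested were called. Besides HRNR this was EPPK1, named after its values were seen, a plakin family gene with 49.7% of windows repeated, which had 606, 712 and 778 counts in stiff and 560, 632 and 587 in soft libraries (0.31 ± 0.07, adjusted p = 0.0140). EPPK1 was higher in stiff, and it lost the call in 7 of the 15 alternatives, among them those that left out the first soft (0.123), the second stiff (0.0708) or the third stiff library (0.252), and the one with GC correction (0.588).

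The genes whose pattern over the 6 libraries was nearest to that of HRNR were FKBP2, RTN4, KLC2, RGS9 and LEKR1. Likeness was the root mean square difference in log2(CPM + 1), centred on the mean of the gene, over 5805 protein-coding genes with 105 to 420.3 counts on average. It was 0.120 for FKBP2, a chaperone of the endoplasmic reticulum, 0.127 for RTN4, a reticulon, 0.135 for KLC2, a kinesin light chain, 0.148 for RGS9, a regulator of G protein signalling, and 0.148 for LEKR1, against a median of 0.372. None of the 5 had repeated windows, like 97.8% of protein-coding genes, and they lie on chromosomes 2, 3, 11 and 17. LEKR1 had 173, 199 and 224 counts in stiff and 249, 301 and 305 in soft libraries, and KLC2 had 169, 204 and 216 in stiff and 238, 300 and 269 in soft libraries. In each the lowest library was stiff replicate 1, as in HRNR, which the choice of genes by their likeness to HRNR brings about. Of the other family members within that range of counts TCHH was at 0.410 and FLG at 0.443. FLG2 (0.298), RPTN (0.413), CRNN (0.426) and TCHHL1 (0.493) averaged fewer counts than the genes compared, so that the median does not apply to them.

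The 6 libraries held 2697502 to 2977837 counts in stiff and 2445498 to 2545385 in soft. At least 1 count was seen for 37213 to 37298 genes in stiff and for 37300 to 37366 in soft libraries, of 38167. Of all genes tested 89 were called higher and 51 lower in stiff, against 31 higher and 4163 lower with library totals alone and 30 higher and 32 lower after GC correction.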

How the data were processed

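RNA of Cal27 spheroid vesicles was read in 3 stiff and 3 soft libraries, each made from about 10 ng of total RNA with 9 PCR cycles and read in pairs of 61 bases, per the labels. In 1 deposited table the authors gave raw counts by gene symbol, not normalized. Trim Galore 0.4.2, cutadapt 1.9.1, FastQC 0.11.7, STAR 2.6.1e, featureCounts 1.6.2, DESeq2 1.26.0 and the build hg38 are named without roles in the submitters' processing notes. How reads with several places were treated, the annotation and the strand setting are not given in the sources used here. Columns were matched to samples by the names in the labels' descriptions, where 2 stiff libraries carry the number 2. Replicate numbers are those of the titles, which call the samples biological replicates.

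The comparison of stiff with soft used robust quasi-likelihood F tests of edgeR 4.0.16 (in R 4.3.3) after filterByExpr and TMM scaling, with Benjamini-Hochberg adjustment over 31074 genes and a call at an adjusted p under 0.05. Standard errors come from the F statistic. Libraries within each group were not copies of one another (chi-square per degree of freedom 1.53 to 3.86), and p-values measure the spread between these libraries. Alternatives were DESeq2 1.42.0, limma-voom (limma 3.58.1), other scalings, no filter, a correction for GC content, a replicate block and leaving out each library. Lengths, GC content and 61-base windows came from GENCODE release 29, which held 27214 (71.3%) of the symbols, and promoters from RefSeq. Named genes were the 7 members, called genes of each list with the 2 highest per kb, and the 5 genes most like HRNR. Others (KRT5, TP63, ALB, FLG-AS1 and EPPK1) were named after their values were seen, and of the olfactory receptors none is named. The members, lists and tests were chosen with earlier results of these data known. Sets defined later were genes with like GC content, genes with repeated windows and genes within 1 Mb of HRNR. A further repeat sequence is not reported here.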

Additional observations from a re-analysis of the deposited data

How the results depend on the processing

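HRNR kept its direction and its call in all 15 alternative fits of the same counts, so that 1 of the 7 genes was called in each. The number of genes called among all tested was 140, against 67 with DESeq2, 43 with DESeq2 without its filter on mean count, 91 with limma-voom, 62 after correction for GC content and 4194 with library totals alone, and it ranged from 60 to 136 when 1 library was left out. DESeq2 with its filter gave an adjusted p for 2157 genes. The median log2 fold change of the 7 genes was −0.10, −0.37 with library totals alone, and −0.19 to 0.06 when 1 library was left out. Their median level was 12.1 counts per kb of exon, 14.7 per 1000 windows found once, and 11.7 to 12.8 when 1 library was left out. With the replicate block 173 genes were called, and HRNR had a log2 fold change of −0.60. Samples with the same number deviated together with correlations of −0.00363 to 0.00346 across genes, and 1 of the 3 soft libraries matched its own number best. No pairing by number was seen, but correlations over many genes with few counts cannot exclude it. The counts of RPTN, TCHHL1 and CRNN, 17 to 50 in each library, limit what could be seen in those genes.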
